A study of Mus musculus with 8 samples.

Results

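The protein genes of the cytosolic ribosome and their testis paralogs were followed in the testis of mice with and without CTCFL. Members were the probe sets whose gene symbol is Rpl or Rps followed by a number, starts with Rplp, or is Rpsa, without the Rps6k kinases and without the mitochondrial Mrpl and Mrps genes. They comprised 190 of 45101 probe sets and 83 of 22666 gene symbols, 49 of them beginning with Rpl and 34 with Rps. A probe set is a group of short oligonucleotides on the array that together give 1 level for a transcript. Rps19bp1, with 1 probe set, was taken in by the symbol rule but encodes a protein that binds RPS19 rather than a ribosomal protein, and it is kept in the counts over all members.

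CTCFL, also called BORIS, is a zinc finger protein related to CTCF that is made in male germ cells. RNA came from whole testis at postnatal day 23, with 1 Affymetrix Mouse430_2 array per sample. The 5 arrays labelled wildtype were replicates 1, 2, 4, 6 and 7, and the 3 arrays labelled Ctcfl mutant were replicates 3, 5 and 8. In the study's text the controls are Ctcfl del/+ littermates and the mutants Ctcfl del/del, on a C57/Bl6 background, so that the controls too would carry 1 deleted allele, while the labels call them wildtype. The deletion, made with Cre recombinase, removes exons 1 to 8 and is present in every cell of the mouse. The targeted gene, Ctcfl, was not analysed here and so could not be used to check the labels. The labels do not say whether the samples were separate animals, and p-values measure the spread between these samples.

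The cytosolic ribosome is built from a large and a small subunit, each made of ribosomal RNA and a fixed set of proteins, mostly 1 copy of each, so the messages of these proteins are abundant in dividing and protein-making cells and are usually regulated together. They belong to the class of messages whose first bases are a run of pyrimidines (C and T), through which growth signals control their translation. In male germ cells the X chromosome is silenced during meiosis, and several X-linked ribosomal protein genes have autosomal copies that are active in the germ line, such as Rpl39l beside Rpl39, Rpl10l beside Rpl10 and Rps4l beside Rps4x.

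The start regions of 5 genes are printed because the results turn on them: the 3 X-linked genes with a probe set of their own (Rpl10, Rps4x and Rpl39), the autosomal copy of one of them (Rpl39l) and Rpl22l1, the paralog of Rpl22. The sequences run 5′ to 3′ from 50 bases before to 30 bases after the start site given by RefSeq (GRCm38.p6), and capitals mark the longest unbroken run of C and T in the window. The windows are chrX:74270766-74270845 on the plus strand for Rpl10, chrX:102189362-102189441 on the minus strand for Rps4x, chrX:37085193-37085272 on the minus strand for Rpl39, chr16:10170178-10170257 on the plus strand for Rpl39l and chr3:28805458-28805537 on the plus strand for Rpl22l1.
Rpl10: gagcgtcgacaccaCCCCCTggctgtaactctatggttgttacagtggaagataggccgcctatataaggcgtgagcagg
Rps4x: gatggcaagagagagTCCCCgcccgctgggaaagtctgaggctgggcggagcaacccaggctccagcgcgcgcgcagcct
Rpl39: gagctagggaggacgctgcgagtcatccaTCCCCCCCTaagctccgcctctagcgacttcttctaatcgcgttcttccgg
Rpl39l: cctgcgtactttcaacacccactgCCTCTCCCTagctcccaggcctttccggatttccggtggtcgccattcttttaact
Rpl22l1: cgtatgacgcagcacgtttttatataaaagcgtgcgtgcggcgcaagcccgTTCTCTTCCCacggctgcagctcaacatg

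In these printed windows the run of C and T was 10 bases long and began at base 2 of the transcript in Rpl22l1, 9 bases long and upstream of the start in Rpl39 and Rpl39l, and 6 and 5 bases long in Rpl10 and Rps4x. Over the wider 50 bases either side of the start, the longest run was 14 bases in Rpl39, 10 in Rpl10 and Rpl22l1, 9 in Rpl39l and 7 in Rps4x. RefSeq promoters were found for 62 of the 83 member genes, and 21 had no entry. Within those 50 bases either side, 43 of the 62 genes (69.4%) held a C and T run of at least 10 bases, against 20.6% of all 27025 genes in the table. Runs of at least 5 bases that held the start base or ended directly before it were also counted. They were present in 33.9% of the members and 18.6% of all genes. These shares are thus not of transcripts that begin with such a run. The ETS family motif CCGGAAG, searched on both strands over the 250 bases before and 50 bases after the start, was held by 40.3% of the members and 9.93% of all genes. The YY1 motif ATGGCGG was held by 16.1% against 4.69%, the cAMP response element TGACGTCA by 8.06% against 2.03%, and the TATA box TATAAA by 11.3% against 15.7%. No motif contains another, and a match is a description of letters, not of a bound site. Of the 5 printed genes, Rpl39 and Rpl39l held the ETS motif and Rpl39 and Rpl22l1 the TATA box within the longer window, while Rpl10 and Rps4x held none of the 4 motifs.

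Array levels were log2 values with medians between 6.40 and 6.45 per array, and precision is limited by there being 5 and 3 arrays. Wildtype 7 and mutant 8 were separated from the other 6 by the first principal component of all probe sets (44.9% of the variance, scores 40.2 and 38.2 against -24.8 to -3.10). On these 2 arrays the spermatid marker list was high, with mean log2 levels of 10.16 and 9.79 against 8.41 to 8.92 on the others, and 29 and 26 of its 29 probe sets lay above their wildtype mean. Fat cell markers were high too, at 6.82 and 6.75 against 5.34 to 5.86. The part of these markers in the results below was not tested, and results that rest on the pair are given with and without it. In RNA of whole testis, fewer cells of a type and less RNA per cell cannot be told apart.

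No cytosolic ribosomal protein gene differed between the genotypes past the threshold. With limma across all 45101 probe sets, 0 passed an adjusted p of 0.05 (background 0%), and the adjusted p of each of the 190 members was 1.0. The brightest probe set of every gene, 82 in all because Rpl36a and Rpl36al share 1, had a 95% confidence interval for mutant minus wildtype that lay within 0.5 of zero on the log2 scale, with bounds from -0.44 to 0.32. Over all members, 185 of 190 intervals lay within that limit, beside 41992 of 45101 for all probe sets. Above the 90th percentile of level it was 138 of 140 members and 4359 of 4510 of all probe sets. Narrow intervals were thus common on the array and not particular to the members.

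**Figure D1:**
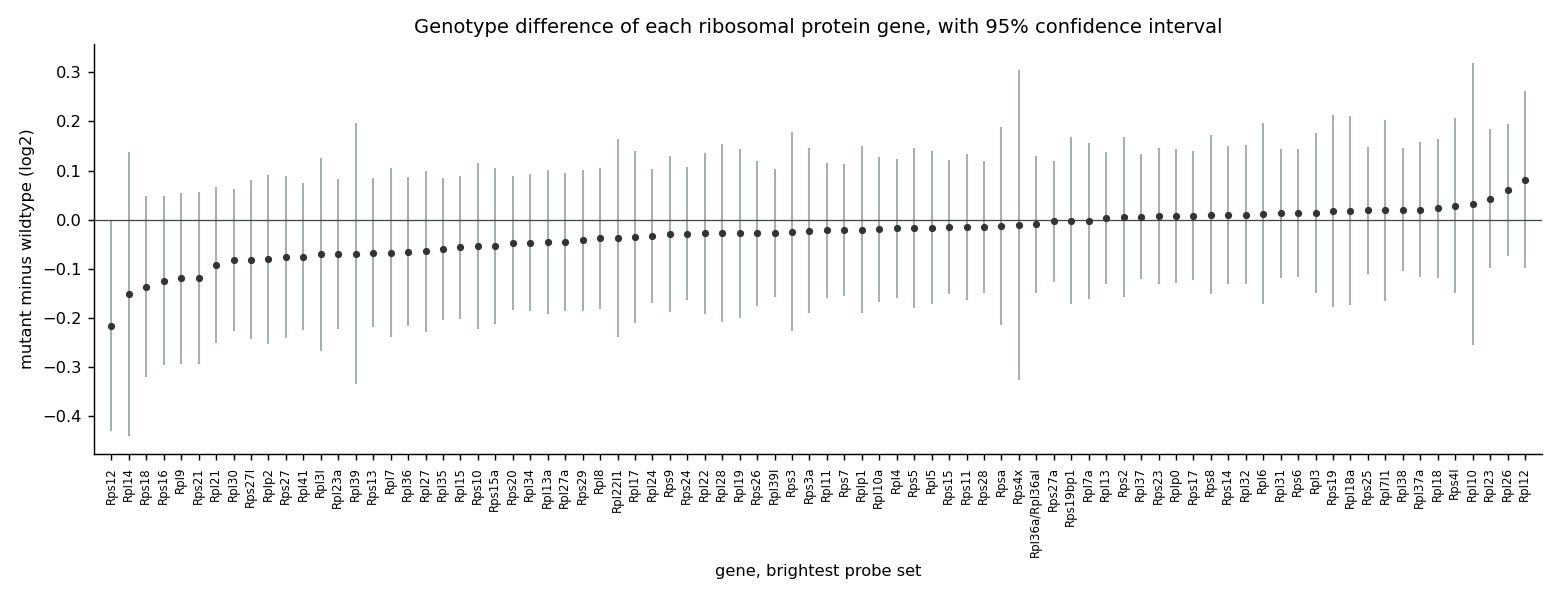
Each point is the brightest probe set of a member gene, in order of its mutant minus wildtype difference in log2 level (5 wildtype and 3 mutant arrays), and each bar is the 95% confidence interval from limma. The 57 negative and 25 positive differences run from -0.22 (Rps12) to 0.08 (Rpl12), and the Rps12 interval alone does not reach zero.

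At an unadjusted p under 0.05, limma gave 1 member higher and 8 lower in mutant testis, which is 0.526% and 4.21% of members beside a background of 1.76% and 1.7% of all probe sets. The one-way comparison without shared variance gave 0 after adjustment and 1 higher and 5 lower before it. The probe set that was higher was of Rpl12, a protein at the base of the large subunit's stalk. The 8 lower ones were of Rpl11, Rpl27, Rpl37, Rpl39, Rps12, Rps20, Rps21 and Rps24, with differences between -0.16 and -0.47. The share that was lower lay above that of all probe sets, but it was 4.22% for all 2441 probe sets with the suffix _x_at, which marks possible cross-hybridisation. Of the members with this suffix 6.85% of 73 were lower, and of the others 2.56% of 117. Above the 90th percentile of level 3.57% of 140 members and 2.28% of all 4510 were lower. The part of suffix and level in the share was not tested, and the share changed with single arrays. Without mutant 3 there were 24 lower (12.6% of members beside 2.08% of all probe sets) and 1 higher (background 2.04%). Without mutant 5 there was 1 lower (0.526% beside 1.22%), and without mutant 8 there were 0 lower (0% beside 2.17%) and 1 higher (background 3.7%). Without both wildtype 7 and mutant 8 there was 1 each way, and the share lower was 0.526% of members beside 3.05% of all probe sets (3.51% for higher). Leaving out 1 wildtype array gave 1 to 5 lower. Without wildtype 1, 2 or 7 the members' share was below that of all probe sets, at 1.05%, 0.526% and 1.58% beside 1.6%, 1.35% and 1.89%. Without wildtype 4 or 6 it was above, at 1.58% and 2.63% beside 1.17% and 1.43%. In the one-way comparison 2.63% of members and 1.84% of all probe sets were lower, and 1.95% of all were higher. Groups did not overlap for 2 members higher (Rpl12, Rpl26) and 2 lower (Rpl11, Rpl39), beside 1.38% and 1.31% of all probe sets.

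Rps12, a small subunit protein, was the only gene whose brightest probe set (1433432_x_at) was in that count, and its ID carries the suffix that marks possible cross-hybridisation. Its log2 level was 13.30, 13.38, 13.35, 13.18 and 13.37 on wildtype arrays 1, 2, 4, 6 and 7, and 13.34, 13.03 and 12.94 on mutant arrays 3, 5 and 8. Mutants 5 and 8 lay below all wildtype arrays, whereas mutant 3 lay among them, so the groups overlapped. The difference was -0.22 (SE 0.10, 95% confidence interval -0.43 to -0.0014, limma adjusted p = 1.0), and it was -0.12 without wildtype 7 and mutant 8.

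Rpl11, which also binds the p53 regulator MDM2 when free of the ribosome, was represented in the count by a dim probe set (1448773_at). In the same order of arrays its log2 level was 5.14, 5.16, 5.03, 5.19 and 5.10 in wildtype and 4.96, 5.00 and 4.93 in mutant testis. Every mutant array was lower than every wildtype array, with a difference of -0.16 (SE 0.06, limma adjusted p = 1.0). The brightest Rpl11 probe set (1417615_a_at) gave 12.83 ± 0.04 (SD, n = 5) and 12.81 ± 0.07 (SD, n = 3), and its difference was -0.022 with an interval of -0.16 to 0.12.

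Rpl12 showed the opposite direction. Its probe set 1435655_at had log2 levels of 6.25, 6.36, 6.29, 6.28 and 6.32 in wildtype and 6.41, 6.58 and 6.41 in mutant testis, without overlap. The difference was 0.17 (SE 0.07, interval 0.02 to 0.31, limma adjusted p = 1.0), and 0.20 without wildtype 7 and mutant 8. The brightest Rpl12 probe set (1416026_a_at) gave 0.08 (interval -0.10 to 0.26), or 0.13 without the pair, with mutant 5 alone above every wildtype array.

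Rpl26, a large subunit protein near the peptide exit, did not overlap between the groups in its brightest probe set (1436995_a_at). Wildtype log2 levels were 13.91, 13.93, 13.81, 13.91 and 13.93, and mutant levels 13.95, 13.96 and 13.96. The gap was small: the difference was 0.06 (SE 0.06, interval -0.07 to 0.19).

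Rps21, of the small subunit, had the most negative difference of all members, in a probe set with the cross-hybridisation suffix (1439415_x_at). Its log2 level was 7.49, 7.52, 7.60, 7.46 and 7.94 in wildtype and 7.53, 7.08 and 6.79 in mutant testis. Mutant 3 lay with the wildtype arrays, and wildtype 7 was the highest of all 8. The difference of -0.47 (SE 0.16, limma adjusted p = 1.0) became -0.21 without wildtype 7 and mutant 8, and was -1.15 between those 2 arrays alone. For the brightest Rps21 probe set (1433721_x_at) the difference was -0.12 with an interval of -0.30 to 0.06, and -0.056 without the pair.

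Rpl37, Rpl27 and Rps24 had the same arrangement of arrays as Rps12 in their probe sets with an unadjusted p under 0.05 in limma. Rpl37, a zinc-binding protein of the large subunit, had log2 levels of 12.88, 12.94, 12.90, 12.85 and 12.95 in wildtype and 12.92, 12.55 and 12.65 in mutant testis in the suffixed probe set 1434872_x_at. Mutants 5 and 8 were below all wildtype arrays and mutant 3 was among them. The brightest Rpl37 probe set (1453729_a_at) did not show this, with levels from 13.57 to 13.64 on the 8 arrays and a difference of 0.0060 (interval -0.12 to 0.13). For Rpl27, of the large subunit, the 3 probe sets gave -0.064 in the brightest, which carries no suffix, -0.22 in 1453096_x_at and -0.27 in 1448217_a_at. For Rps24, a small subunit protein mutated in Diamond-Blackfan anaemia, the 4 suffixed probe sets gave -0.028 in the brightest and -0.041, -0.14 and -0.19 in the others. In the brightest Rps24 probe set the arrangement did not hold, with mutant 5 (13.54) above wildtype 7 (13.53). In Rps20 all 4 probe sets were on the lower side, from -0.048 in the brightest to -0.17 in 1456373_x_at.

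The other genes with the smallest p in their main probe sets did not reach an unadjusted p of 0.05. These probe sets were dim, and the brighter ones of the same genes gave smaller differences. Rps19, also mutated in Diamond-Blackfan anaemia, differed by 0.15 (interval -0.048 to 0.35) in 1460442_at and by 0.018 in its brightest probe set. The value in 1460442_at was 0.079 without wildtype 7 and mutant 8 and 0.093 without wildtype 7. Rpl3, which lies by the peptidyl transferase centre, differed by 0.12 (interval -0.10 to 0.34) in 1438527_at, where mutant 3 stood at 7.29 and the other 7 arrays at 6.84 to 7.01, and by 0.014 in its brightest. Without the pair of arrays 1438527_at gave 0.21, and without mutant 3 it gave -0.012. Rpl41, the shortest of the ribosomal proteins, differed by 0.12 (interval -0.14 to 0.37) in 1446726_at and by -0.075 in its brightest, so the signs were opposite. Rps10 differed by 0.16 in 1436384_at, or 0.10 without the pair, and by -0.054 in its brightest. Rpl7, a large subunit protein, differed by -0.16 (interval -0.41 to 0.09) in 1427452_at, or -0.26 without the pair, and by -0.067 to -0.081 in its 3 brighter probe sets.

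Over all 190 members the median mutant minus wildtype difference was -0.033 on the log2 scale, and 139 (73.2%) were lower, beside a median of 0.0032 and 48.5% lower over all probe sets. The large subunit (102 probe sets, 49 genes) had a median of -0.035 with 72 lower, and the small subunit (87 probe sets, 33 genes) -0.029 with 66 lower. Above the median level, 75.6% of 164 member probe sets and 47.1% of all 22550 were lower. Above the 90th percentile of level, 75.7% of 140 member probe sets and 55.2% of all 4510 were lower. Probe sets with the cross-hybridisation suffix were lower in 82.2% of 73 members and in 60.5% of all 2441, and the median was -0.063 in the former against -0.023 in the other 117 members. Counted once per gene by the brightest probe set, the median was -0.022.

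The shift differed between the mutant arrays. The median departure of the members from their wildtype mean was 0.042 on mutant 3, -0.055 on mutant 5 and -0.088 on mutant 8. On the wildtype arrays 1, 2, 4, 6 and 7 it was -0.00069, 0.053, -0.015, -0.012 and -0.027. Mutant 3 and wildtype 2 were thus the 2 high arrays, with 146 and 160 of the 190 members above the wildtype mean, against 50 on mutant 5 and 31 on mutant 8. Marker lists of testis cells also differed between the mutant arrays. On mutants 3, 5 and 8 the median departure was 0.39, 0.079 and 0.048 for Leydig cells, 0.18, 0.10 and -0.037 for Sertoli cells and 0.18, 0.10 and -0.062 for spermatogonia. It was -0.19, -0.013 and -0.0035 for spermatocytes and -0.74, -0.26 and 0.60 for spermatids, and all 13 Leydig probe sets but 3 of 29 spermatid ones lay above their wildtype mean on mutant 3. The part of these markers in the members' shift was not tested. Without mutant 3 the median difference was -0.071, and without mutant 8 it was -0.0090. The members' spread was narrow, with a median SD over the wildtype arrays of 0.064 against 0.12 for all probe sets. Above the 90th percentile of level it was 0.056 against 0.076. Levels were unlike even there, with a median of 12.87 for members and 10.84 for all probe sets. The part of level in the spread was not tested.

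**Figure D2:**
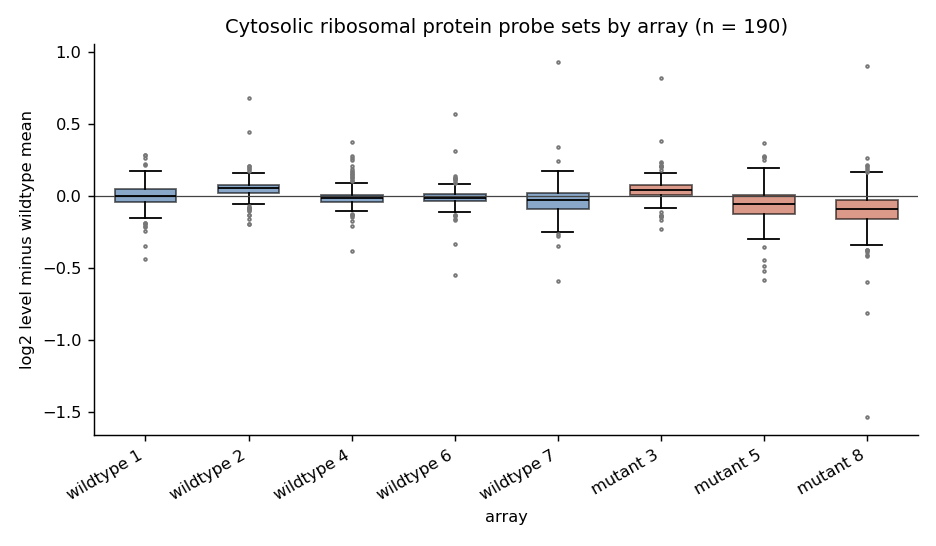
Each box holds the 190 member probe sets on 1 array as log2 level minus the probe set's wildtype mean, with the median as a line, the quartiles as the box, whiskers to 1.5 times the quartile range and single points beyond. Blue boxes are wildtype and red boxes mutant arrays, and the medians of mutant 3 (0.042) and mutant 8 (-0.088) lie on opposite sides of zero.

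The X-linked members were next set beside their autosomal paralogs. Rps4x, the X-linked form of the small subunit protein RPS4, had log2 levels of 11.53, 11.54, 11.34, 11.36 and 11.15 in wildtype and 11.61, 11.50 and 11.01 in mutant testis. Rpl10, a large subunit protein at the subunit interface, had levels of 12.10, 12.19, 12.02, 12.06 and 11.74 in wildtype and 12.26, 12.14 and 11.76 in mutant testis. For both genes wildtype 7 and mutant 8 were the 2 lowest arrays, and mutant 3 was the highest. Rpl39, a small protein of the large subunit's exit tunnel, had levels of 12.80, 13.01, 12.83, 12.79 and 12.80 in wildtype and 13.06, 12.80 and 12.47 in mutant testis in its brightest probe set (1450840_a_at). Here mutant 8 alone was low.

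Genotype differences of the 3 genes were small beside this spread. Rps4x differed by -0.011 (SE 0.14, interval -0.33 to 0.31) and Rpl10 by 0.03 (SE 0.13, interval -0.26 to 0.32). Without wildtype 7 and mutant 8 both differed by 0.11, while between these 2 arrays they differed by -0.14 and 0.02. Rpl39 differed by -0.07 (SE 0.12, interval -0.34 to 0.20), by 0.07 without the pair and by -0.33 between them. A second, dimmer Rpl39 probe set (1423032_at) had levels of 7.99, 8.07, 8.0, 8.07 and 8.10 in wildtype and 7.97, 7.91 and 7.77 in mutant testis. Its difference was -0.16 (SE 0.07, interval -0.31 to -0.0070, limma adjusted p = 1.0), and here too the groups did not overlap. It was -0.09 without wildtype 7 and mutant 8 and -0.10 without mutant 8.

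The autosomal paralogs were compared in the same way. Rpl39l had log2 levels of 13.45, 13.43, 13.45, 13.44 and 13.48 in wildtype and 13.37, 13.42 and 13.48 in mutant testis, and Rps4l, listed under its older name Rps4y2 and annotated by RefSeq as a transcribed pseudogene, 12.31, 12.21, 12.07, 12.23 and 12.08 and then 12.16, 12.32 and 12.14. The SD over the wildtype arrays was 0.018 for Rpl39l against 0.09 for Rpl39, and 0.10 for Rps4l against 0.16 for Rps4x. For Rpl39, wildtype 2 at 13.01 stood apart from the other wildtype arrays at 12.79 to 12.83. In the pair of Rpl22l1 and Rpl22, described below, the SD was 0.15 against 0.08. Mutant minus wildtype was -0.027 (interval -0.16 to 0.10) for Rpl39l and 0.03 (interval -0.15 to 0.21) for Rps4l. Rpl10l is not analysed here.

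**Figure D3:**
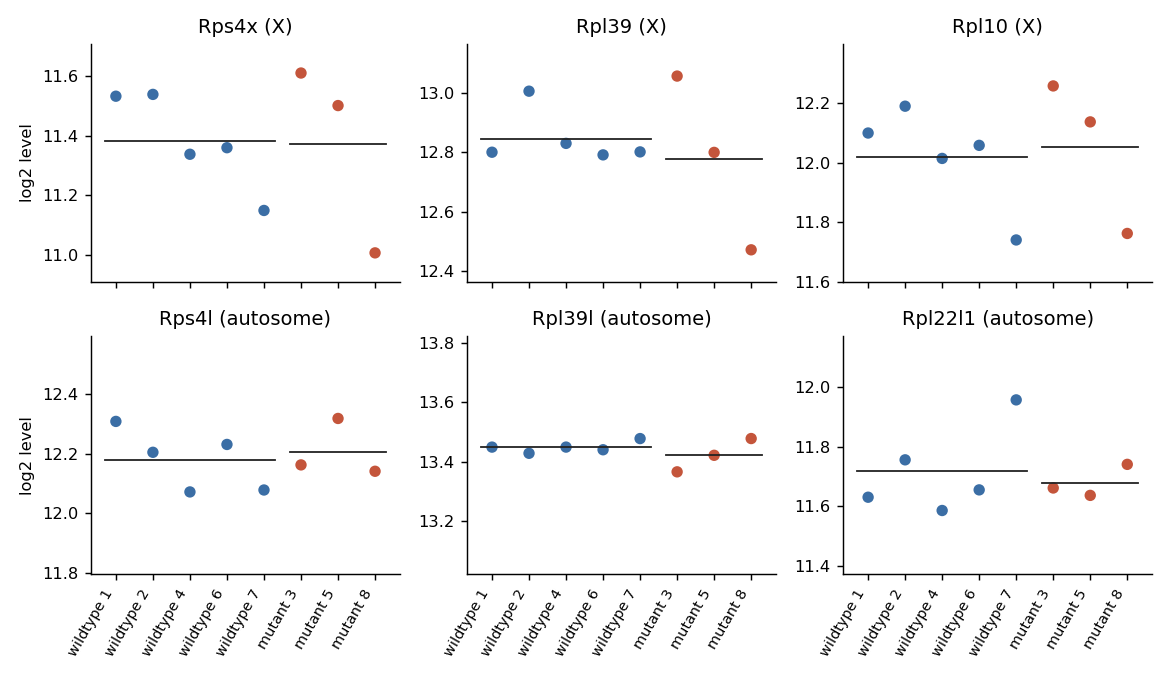
Log2 level of the brightest probe set on each array for 3 X-linked genes (top) and 3 autosomal paralogs (bottom). Wildtype is in blue, mutant in red and each group's mean is a line, and every panel spans the same height of 0.8. Rpl22l1 is the paralog of Rpl22 and not of a gene in the top row. Rps4x and Rpl10 are lowest on wildtype 7 and mutant 8, whereas Rpl39l stays between 13.37 and 13.48.

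In the other paralog pairs the intervals held zero as well. Rpl22l1, the paralog of the RNA-binding Rpl22, had log2 levels of 11.63, 11.76, 11.59, 11.65 and 11.96 in wildtype and 11.66, 11.64 and 11.74 in mutant testis. It was highest on wildtype 7, and its difference was -0.037 (interval -0.24 to 0.16) against -0.028 (interval -0.19 to 0.14) for Rpl22. The muscle paralog Rpl3l was dim, at 4.77 ± 0.11 (SD, n = 5) on the wildtype arrays and 4.70 ± 0.14 (SD, n = 3) on the mutant ones. It was the only member gene whose brightest probe set lay below the median level of the array. Rpl7l1 differed by 0.019 (interval -0.17 to 0.20) and Rps27l by -0.08 (interval -0.24 to 0.08). Rpl36a, which is X-linked, and its autosomal paralog Rpl36al share a probe set and could not be told apart.

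Wildtype 7 and mutant 8 were then each compared with the other arrays of their own genotype, over the brightest probe set of each gene, as a description without a test. Mutant 8 was lower than the mean of mutants 3 and 5 in 69 of 82, with a median of -0.09, and wildtype 7 was lower than the mean of the other wildtype arrays in 56, with a median of -0.033. In 55 the level was lower in both comparisons. Of the 18550 probe sets of a single autosomal gene above the median level, 10954 were lower on mutant 8. On wildtype 7 it was 9984 of them, and 7300 were lower on both. The 3 X-linked genes were the 3 lowest of 82 on mutant 8, at -0.55 for Rps4x, -0.46 for Rpl39 and -0.44 for Rpl10. On wildtype 7 they ranked 3 (Rps4x, -0.29), 33 (Rpl39, -0.055) and 1 (Rpl10, -0.35) from the lowest. Rpl14, an autosomal gene of the large subunit, came next on mutant 8 at -0.39 and lay at -0.31 on wildtype 7. Of the autosomal paralogs, Rpl22l1 was at 0.09 on mutant 8 and 0.30 on wildtype 7. In the same order Rpl39l was at 0.08 and 0.036, and the dim Rpl3l at 0.18 and 0.11. Rps4l was lower on both arrays, at -0.10 and -0.13, as was Rpl7l1 at -0.16 and -0.0093. Rps27l was at -0.095 and 0.014. Among all probe sets of a single gene above the median level, those on the X chromosome (528) had a median of -0.20 on mutant 8 and 0.030 on wildtype 7, against -0.044 and -0.015 for those on autosomes (18550). The spermatid list had medians of 1.18 and 1.11 in the same comparison, and its part in these departures was not tested.

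**Figure D4:**
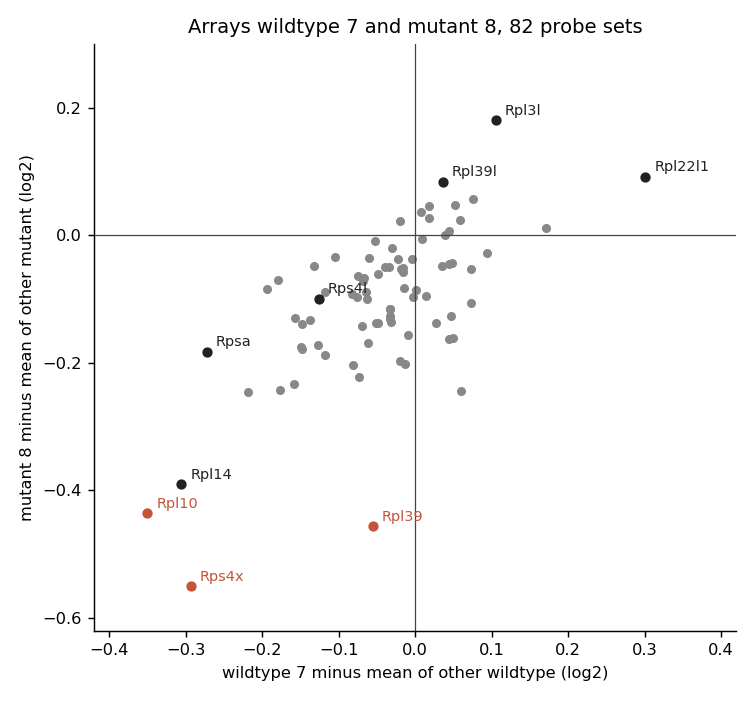
Each point is the brightest probe set of a member gene (82), placed by how far wildtype 7 lay from the mean of the other 4 wildtype arrays (horizontal) and mutant 8 from the mean of the other 2 mutant arrays (vertical), in log2. The 3 X-linked genes with their own probe set are in red at the bottom, between -0.55 and -0.44 on the vertical axis.

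The stalk proteins Rplp0, Rplp1 and Rplp2, which recruit the elongation factors, and Rpsa, which is also known as the laminin receptor, were described apart. Rplp0 had log2 levels of 13.85 ± 0.04 (SD, n = 5) on the wildtype and 13.86 ± 0.06 (SD, n = 3) on the mutant arrays. Levels were 13.44 ± 0.06 and 13.42 ± 0.13 for Rplp1 and 13.46 ± 0.07 and 13.38 ± 0.13 for Rplp2. The differences were 0.0071, -0.020 and -0.08, with intervals from -0.25 at the lowest bound to 0.15 at the highest. Rpsa in its brightest probe set (1448245_at) differed by -0.013 (interval -0.22 to 0.19).

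Probe sets of 1 gene did not always move together. Of the 51 genes with several probe sets, up to 6 each, all were lower in mutant testis for 24 genes, all higher for 7 and of both signs for 20. Of the 190, 75 list several genes, most of them by an identifier beside the ribosomal protein's, and 142 carry a suffix that marks probes shared between transcripts. Signal from a gene and from near-identical copies can mix in the levels of the 75, and in those of the 73 with the cross-hybridisation suffix.

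Rps6, the small subunit protein that S6 kinases phosphorylate, was one such gene. Its probe set 1416142_at had log2 levels of 7.59, 7.49, 7.39, 7.32 and 6.71 in wildtype and 7.40, 7.47 and 5.77 in mutant testis. It was low on wildtype 7 and mutant 8, by -0.74 and -1.67 against the other arrays of their genotype. The brightest Rps6 probe set (1416141_a_at) lay between 13.73 and 13.81 on all 8 arrays, and its difference was 0.013 (interval -0.12 to 0.14). For 1416142_at the difference was -0.42 (interval -1.23 to 0.39), -0.012 without wildtype 7 and mutant 8 and 0.14 without mutant 8 alone.

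Rps25, which internal ribosome entry on some messages depends on, showed 2 levels of another kind. Its probe set 1430978_at had log2 levels of 8.58, 9.46, 8.64, 8.47 and 9.95 in wildtype and 9.83, 8.44 and 9.92 in mutant testis. Wildtype 2, wildtype 7, mutant 3 and mutant 8 were high, so both genotypes held both levels. The other Rps25 probe set (1451068_s_at) kept to 12.79 ± 0.03 (SD, n = 5) and 12.80 ± 0.03 (SD, n = 3). In its dim probe set 1436384_at, Rps10, a protein of the small subunit's head, had a wide range among the wildtype arrays as well, with 5.68 on wildtype 1 and 6.01 to 6.28 on the other 4.

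**Figure D5:**
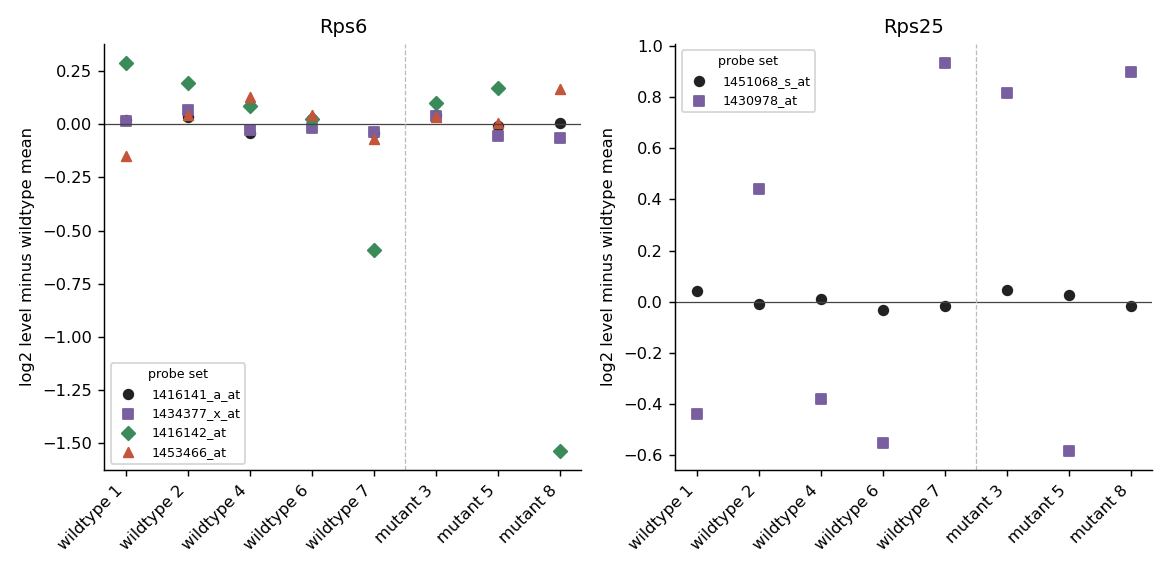
Log2 level minus the wildtype mean on each array for every probe set of Rps6 (left) and Rps25 (right), 1 symbol per probe set, with the dashed line between wildtype and mutant arrays. Rps6 1416142_at falls on wildtype 7 and mutant 8 and Rps25 1430978_at is high on 4 arrays, while the brightest probe set of each gene stays close to zero.

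Other parts of the translation machinery were read from lists. None had a member past an adjusted p of 0.05 in limma. The mitochondrial ribosome (146 probe sets, 75 genes) had a median difference of -0.020 with 93 lower (63.7%, beside 48.5% of all probe sets). At an unadjusted p under 0.05 in limma, 1 was higher and 3 were lower. These are 0.685% and 2.05% of its probe sets, beside 1.76% and 1.7% of all. Its median departure per array ran from 0.039 on wildtype 1 and 0.029 on mutant 3 to -0.064 on mutant 8. Translation elongation factors (17 probe sets) had a median of -0.0058 with 11 lower and 1 of them (5.88% of the list) at an unadjusted p under 0.05. Initiation factors (103 probe sets) had -0.012 with 56 lower and none in either direction at that threshold. Ribosome biogenesis factors (101 probe sets) had 0.00022 with 50 lower. At that threshold 2 were higher (1.98%) and 1 lower (0.99%). Fau, whose product includes a small subunit protein, and Rack1, a scaffold on the small subunit, are outside the symbol rule. Fau differed by 0.0089 (interval -0.14 to 0.15) in a probe set that also lists another identifier. Rack1 differed by -0.00048 (interval -0.14 to 0.14) in its dim main probe set (1440120_at, mean level 6.69) and by 0.05 (interval -0.12 to 0.23) in its brightest (1455168_a_at, mean level 12.49).

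Genes outside the ribosome that ran most like the members' mean over the 8 arrays were Pole4, a DNA polymerase epsilon subunit (Pearson r = 0.976), Srd5a1, a steroid reductase (r = 0.975), and Dhx30, an RNA helicase (r = 0.972), out of 20652 genes with a probe set of their own. The mean over the members' 82 main probe sets, which was used here, spanned 10.86 to 10.99 on the arrays, and Srd5a1 spanned 7.10 on mutant 8 to 7.88 on mutant 3. These are descriptions over 8 arrays that share the pair of arrays set apart above.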

How the data were processed

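The authors hybridised biotin-labelled cRNA from testis total RNA to Mouse430_2 arrays and, per the study's methods, corrected the background and normalised with RMA. The deposited table gives each probe set a log2 value on every array, which was used unchanged and without a filter. Group means, fold values and p-values in it, and the authors' 2 limma tables, hold their own comparisons and were not used. Sample titles gave genotype and replicate number. In R 4.3.3, limma 3.58.1 was run on all 45101 probe sets (lmFit, then eBayes; two-sided p-values adjusted by Benjamini-Hochberg), and the members' rows were read from that fit, which was tested on simulated data. Other steps used Python 3.11.15, pandas 2.3.3 and matplotlib 3.10.9. Symbols were updated through Entrez IDs in a RefSeq table (GRCm38.p6), which held the ID of 91.5% of the probe sets that had one. The genome build of the array annotation is not given in the sources used here.

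The members and lists were chosen with earlier results of these data known. Named genes were the members of paralog pairs, Rplp0, Rplp1, Rplp2, Rpsa, up to 5 genes per direction by p, the 3 with the widest wildtype range, Fau and Rack1, and the 3 genes most like the members' mean. A further gene of this rule is not reported here. Each has a main probe set, without a shared-transcript suffix and for 1 gene where one exists. For 23 genes that was not the brightest, so the brightest is given too. That alternative, leaving out wildtype 7 and mutant 8, and a block for them were chosen after the data were seen. Other genes named in the text were chosen after their values were seen.

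Alternatives were leaving out each array, centring on the median, repeated quantile normalisation, array weights, an intensity trend, a one-way comparison, probe sets above the median level, 1 probe set per gene, and leaving out shared or suffixed probe sets.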

Additional observations from a re-analysis of the deposited data

Results flagged for a closer look

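Of 49 measures examined among the 5 wildtype arrays, 5 had 1 array far from the other 4 by Dixon's criterion, where chance gives about 1 in 20 measures. Rpl3, in its dim probe set 1438527_at, had a log2 level of 7.01 on wildtype 1, and the nearest array was at 6.90. Rpl39 in 1450840_a_at stood at 13.005 on wildtype 2, with the nearest at 12.83. The median departure of the small subunit members from their wildtype mean was 0.049 on wildtype 2, against -0.0036 on the nearest array. The spermatid list had a median departure of 0.88 on wildtype 7 (nearest -0.12) and the fat cell list one of 0.49 (nearest -0.089). Their part in the ribosomal protein levels of that array was not tested.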

How the results depend on the processing

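Counts at an adjusted p of 0.05 were 0 members under every alternative run, and the lowest adjusted p of a member was 0.7605. The 9 of 190 members at an unadjusted p under 0.05 (4.74%, beside 3.47% of all probe sets) became 4 of 82 with 1 probe set per gene (4.88% beside 3.28%), 1 of 82 with the brightest (1.22% beside 3.21%) and 3 of 39 without shared or suffixed probe sets (7.69% beside 3.3%), so that fewer were tested in these. They became 2 without wildtype 7 and mutant 8 together (1.05% beside 6.55%) and 5 with that pair as a block (2.63% beside 5.86%). Leaving out 1 array gave 1 to 25, or 0.526% to 13.2% beside 2.71% to 5.87%, and the members' median difference then lay between -0.071 and -0.0090. The highest count and the lowest median came without mutant 3, and the cause was not tested.

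Of 443 values of the 28 named member genes, Fau and Rack1 (main probe sets) under alternatives, 49 had the other sign, and 13 genes never changed sign. Rps4x became 0.045 with array weights, 0.11 without the pair, 0.0033 with repeated quantile normalisation and 0.044 with the block. Rpl36a and Rpl36al became 0.014 without the pair and 0.0046 with repeated quantile normalisation, and Rplp1 0.0084 without the pair. Fau became -0.0050 with array weights and -0.011 without the pair, and Rack1 0.0035 and 0.012. Leaving out 1 array turned the sign of Rpl10 (-0.071 to 0.18), Rpl22 (-0.081 to 0.0063), Rpl22l1 (-0.070 to 0.023), Rpl3 (-0.012 to 0.21), Rpl36a (-0.030 to 0.0045), Rpl36al (-0.030 to 0.0045), Rpl39l (-0.055 to 0.00082), Rpl3l (-0.13 to 0.0072), Rpl7l1 (-0.034 to 0.071), Rplp0 (-0.018 to 0.041), Rplp1 (-0.10 to 0.026), Rps4x (-0.13 to 0.17), Rps4l (-0.027 to 0.062), Rps6 (-0.72 to 0.14), Rpsa (-0.067 to 0.0012), Fau (-0.017 to 0.025) and Rack1 (-0.017 to 0.017), given as lowest to highest value. The confidence interval of each of these genes held zero.

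No paired analysis was possible because no replicate number occurs in both genotypes. With 3 mutant arrays, 1 array can decide a count, and probe sets with shared probes mix transcripts.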
